A study of Mus musculus with 4 samples.

Results

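Cytosolic ribosomal protein genes were examined in RNA from sorted mouse mammary tumor cells, in 2 libraries titled Lsd1 knockout and 2 titled Lsd1 wild-type. Members were the rows of the deposited expression table whose symbol begins with Rpl, Rplp or Rps and a number. Ribosomal S6 kinase genes, pseudogene rows and Rps19bp1 were left out. This gave 85 genes of 23951 rows that are not spike-in sequences, 52 of the large and 33 of the small subunit. Of these, 9 are paralogs or retrogene copies of another member, and the other 76 are called core members here.

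All 4 libraries came from YFP+ cells of MMTV-PyMT female mice, whose mammary epithelium expresses the polyoma middle T oncogene. The cells carried the Rosa26-Stop-YFP reporter (R26Y), which marks cells after Cre recombination. Cre had been delivered into the ducts by an adenovirus under the Krt8 promoter (Ad-K8-Cre), active in luminal cells, 2 to 3 months before sorting. The series' design text gives the knockout cells the conditional alleles Lsd1L/L and the control cells Lsd1+/+. The tissue label of both libraries titled knockout nevertheless reads Lsd1+/+, so they are called the libraries labelled knockout. Mouse age, and whether animals were pooled or each library came from its own mouse, are not stated in the labels. The p-values below therefore measure only the spread between these libraries.

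Expression was given as FPKM, a read measure adjusted for transcript length and library size, so levels can be compared between genes, except where reads are shared with a near-identical copy. The unit was inferred from the values. Relative sequencing depth, judged from the spacing of low FPKM values, was 0.928 in the first library labelled knockout and 1.03 and 0.85 in wild-type, taking the second library labelled knockout as 1. Kdm1a, which encodes LSD1, was at 20.2 and 22.8 FPKM in the knockout-labelled libraries, against 52.5 and 22.9 FPKM in wild-type. The difference was -0.67 on the log2(FPKM + 1) scale (SE 0.46; limma, adjusted p = 0.34). The second libraries of the groups almost touched, and only the first wild-type library stood apart. The level of the targeted gene therefore does not check the labels. The 10 luminal markers summed to 702 and 721 FPKM in the knockout-labelled libraries, against 11720 and 2627 FPKM in wild-type. The 14 lymphocyte markers with a row summed to 2158 and 2052 FPKM in the knockout-labelled libraries, against 19.0 and 83.7 FPKM in wild-type, with none listed at 0 in any library. Of these 14 genes 13 rose (limma), where 9.51% of all tested genes did, and Cd4 did not pass. Of the 10 luminal markers 2 fell (limma), where 6.99% of all tested genes did, and 8 did not pass. The part of the lymphocyte list in the ribosomal protein results was not tested.

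The cytosolic ribosome is built from a small subunit, which decodes the messenger RNA, and a large subunit, which joins amino acids and carries the exit tunnel. Each protein is normally present once per ribosome, except the acidic stalk proteins, and cells make the subunits in balance. Vertebrate ribosomal protein mRNAs begin with a terminal oligopyrimidine (TOP) tract, a C followed by a run of pyrimidines, through which mTOR and LARP1 control their translation and stability. The genes have left many processed pseudogenes in the mouse genome, and a few have true paralogs that are used in particular tissues.

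The largest differences among the members fell within the S27 family, so its sequences are shown first. Below are the first 120 coding bases of Rps27, of its retrogene Rps27rt and of its paralog Rps27l, from GENCODE M21 on GRCm38, with bases that differ from Rps27 in capitals.
Rps27: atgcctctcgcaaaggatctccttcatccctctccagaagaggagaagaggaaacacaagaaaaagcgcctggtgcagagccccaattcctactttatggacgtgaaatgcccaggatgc
Rps27rt: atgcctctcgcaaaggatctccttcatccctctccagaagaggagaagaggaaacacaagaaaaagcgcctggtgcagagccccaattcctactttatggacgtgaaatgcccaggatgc
Rps27l: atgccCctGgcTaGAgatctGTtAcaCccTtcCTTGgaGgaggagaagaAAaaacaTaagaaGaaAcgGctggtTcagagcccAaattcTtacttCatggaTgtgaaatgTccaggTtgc
Rps27 (chromosome 3) and Rps27rt (chromosome 9) were identical over all 255 coding bases. Reads from the coding part of these genes cannot be told apart, and the split between their rows depends on the authors' counting. Rps27l (chromosome 9) shared 194 of 255 coding bases with Rps27, or 76.1%, and differed at 28 of the 120 bases shown.

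The windows at annotated gene starts show the TOP context. They run from 10 bases before to 20 bases after a RefSeq start on GRCm38.p6, with the motifs CTTTC and CTTTT in capitals. Rps27l has another annotated start, with its window at chr9:66946403-66946432, which is not shown. Neither start of Rps27l had the motif within 25 bases. The S27 genes are shown with 2 genes that rose (Rpl13a and Rps6) and 2 that did not pass the test (Rpl28 and Rpl7a), a choice made after their values were seen.
Rps27, chr3:90213629-90213658, minus strand: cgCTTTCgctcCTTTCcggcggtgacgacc
Rps27rt, chr9:114982720-114982749, minus strand: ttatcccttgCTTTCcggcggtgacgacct
Rps27l, chr9:66946076-66946105, plus strand: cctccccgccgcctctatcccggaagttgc
Rpl13a, chr7:45128726-45128755, minus strand: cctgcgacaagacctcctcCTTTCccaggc
Rps6, chr4:86857348-86857377, minus strand: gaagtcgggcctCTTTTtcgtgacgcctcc
Rpl28, chr7:4792955-4792984, plus strand: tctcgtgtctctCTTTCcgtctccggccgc
Rpl7a, chr2:26910797-26910826, plus strand: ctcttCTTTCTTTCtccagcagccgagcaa
Genes that rose and genes that did not pass both carried the motif.

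Of the 85 members, 64 had a RefSeq promoter entry. CTTTC or CTTTT, which can overlap by a letter, stood on the gene strand within 25 bases of an annotated start in 24 of these 64 genes (37.5%). Over all 27025 genes with an entry the share was 13.2%. On the opposite strand it was 15.6% of members and 12.3% of all genes. The 22 tested core members with the motif on the gene strand had a median log2 difference of 0.81, and 11 of them rose (limma). The 34 without it had a median of 0.66, and 11 of these rose too, where 9.51% of all tested genes did. The 2 sets overlapped widely, with middle ranges of 0.69 to 1.05 and 0.48 to 0.84. Annotated starts can miss the true start by some bases, so an absent match says only that these letters are not in the window.

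Ribosomal protein transcripts made up a larger part of the libraries labelled knockout. The 85 rows held 14.7% and 15.2% of all summed FPKM in the knockout-labelled libraries, against 8.62% and 8.01% in wild-type. The groups did not overlap, and the mean share was 1.80 times higher in the libraries labelled knockout (15.0 ± 0.361% and 8.32 ± 0.431%, SD, n = 2 each). Leaving out any one library gave ratios from 1.74 to 1.87. Both subunits took part: the large subunit held 7.98% and 8.27% in the libraries labelled knockout, against 4.88% and 4.47% in wild-type. The small subunit held 6.75% and 6.98% in the libraries labelled knockout, against 3.74% and 3.54% in wild-type. No test was made on these shares, since an exact permutation test of 2 against 2 libraries cannot pass 0.05. In bulk RNA, a changed mix of cells and a changed amount of these RNAs per cell cannot be told apart.

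**Figure D1:**
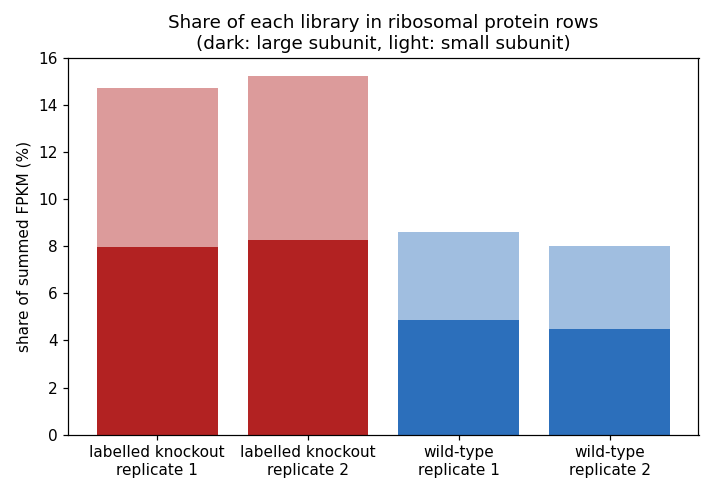
Share of summed FPKM in cytosolic ribosomal protein rows, in percent, 1 bar per library, dark for the large and light for the small subunit. The bars of the libraries labelled knockout reach 14.7% and 15.2% and those of wild-type 8.62% and 8.01%.

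Among the 50 rows of highest FPKM, 23 and 24 were ribosomal protein genes in the libraries labelled knockout, against 8 and 7 in wild-type. Among the 200 highest rows there were 62 and 63 in the libraries labelled knockout, against 50 and 42 in wild-type. The median large subunit gene was at 437 and 444 FPKM in the knockout-labelled libraries, against 331 and 300.2 FPKM in wild-type. The median small subunit gene was at 628 and 624 FPKM in the knockout-labelled libraries, against 391 and 413 FPKM in wild-type. These medians cover the 82 members that reached 1 FPKM in at least 2 libraries and were tested. Apart from Rpl26 and Rps4l, each tested member was above 1 FPKM in all 4 libraries.

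By the median gap, ribosomal protein levels were alike within each pair, even in the wild-type pair, whose transcriptomes differed more. Single members departed from this in wild-type, such as Rps27 (115 and 488 FPKM) and Rps29 (752 and 1222 FPKM). The median absolute log2 gap between replicates over tested members was 0.0563 in the pair labelled knockout and 0.162 in the wild-type pair. Over all 11138 tested genes it was 0.125 and 0.495 in the same pairs. That set reaches down to genes near 1 FPKM, and no set matched for level was compared. The wild-type libraries also differed widely in luminal markers (11720 and 2627 FPKM summed) and in macrophage markers (189 and 4577 FPKM summed). Their ribosomal shares were 8.62% and 8.01%, and any link between these shares and the markers was not tested. The macrophage markers summed to 224 and 215 FPKM in the knockout-labelled libraries.

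**Figure D2:**
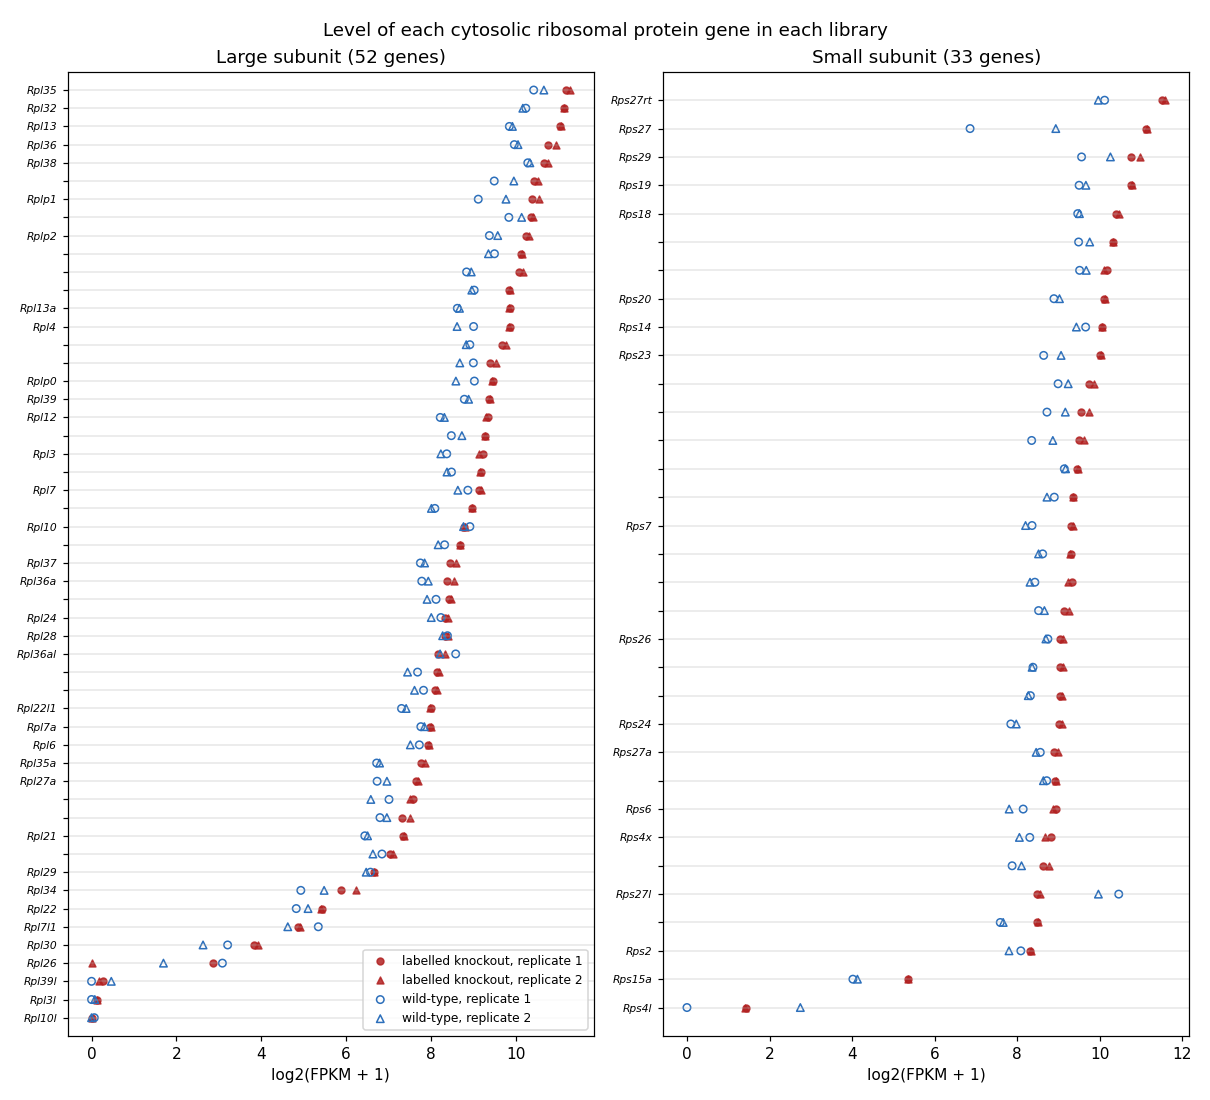
Level of each of the 85 genes in each library on the log2(FPKM + 1) scale, filled red for the libraries labelled knockout and open blue for wild-type, ordered by the mean of the libraries labelled knockout, with names for the genes described in the text. Red symbols lie right of blue for most genes, and Rps27l lies the other way. Rps15a and Rps4l lie far below the rest of the small subunit. Rpl26, Rpl30, Rpl3l, Rpl10l and Rpl39l are the lowest of the large subunit.

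Many members of both subunits were higher in the libraries labelled knockout, by less than a doubling for most. Values were compared as log2(FPKM + 1) with limma over all 11138 tested genes, with Benjamini-Hochberg adjusted p-values and a threshold of 0.05. Of 49 tested large subunit genes 17 rose (34.7%), 32 did not pass and none fell. Of 33 small subunit genes 14 rose (42.4%), 1 fell and 18 did not pass. Over all tested genes 9.51% rose and 6.99% fell. The median log2 difference was 0.67 for the large and 0.71 for the small subunit, against 0.08 over all tested genes. Still, 25.6% of all tested genes lay above the large subunit's median and 24.3% above that of the small subunit. In 76 of 82 tested members the groups did not overlap, 75 of them with the libraries labelled knockout higher, where 39.3% of all tested genes had that pattern.

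The calls depended on the filter, on the prior and on both libraries labelled knockout being present. With no filter on low values no member passed, and 1 gene of the whole table did (limma). Without the trended and robust prior 7 of 49 large and 9 of 33 small subunit genes passed, as did 1830 of all 11138 tested genes (limma). With either library labelled knockout left out, none of the 32 called members passed (limma). Nor did any other gene of the table pass then, so each call given here depends on both libraries labelled knockout. With a wild-type library left out, only the pair labelled knockout gives a spread, so passing genes are not counted for those fits. The large and small subunit medians were 0.58 and 0.68 without the first wild-type library. Without the second they were 0.67 and 0.82. They were 0.69 and 0.77 without the first library labelled knockout, and 0.65 and 0.69 without the second. None of the 32 changed direction under any setting tried. Only the scalings and the summing of near copies could have turned a sign. The groups of these genes did not overlap, so leaving out a library or changing the pseudocount could not. The filter, prior and replicate block leave the difference itself unchanged.

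**Figure D3:**
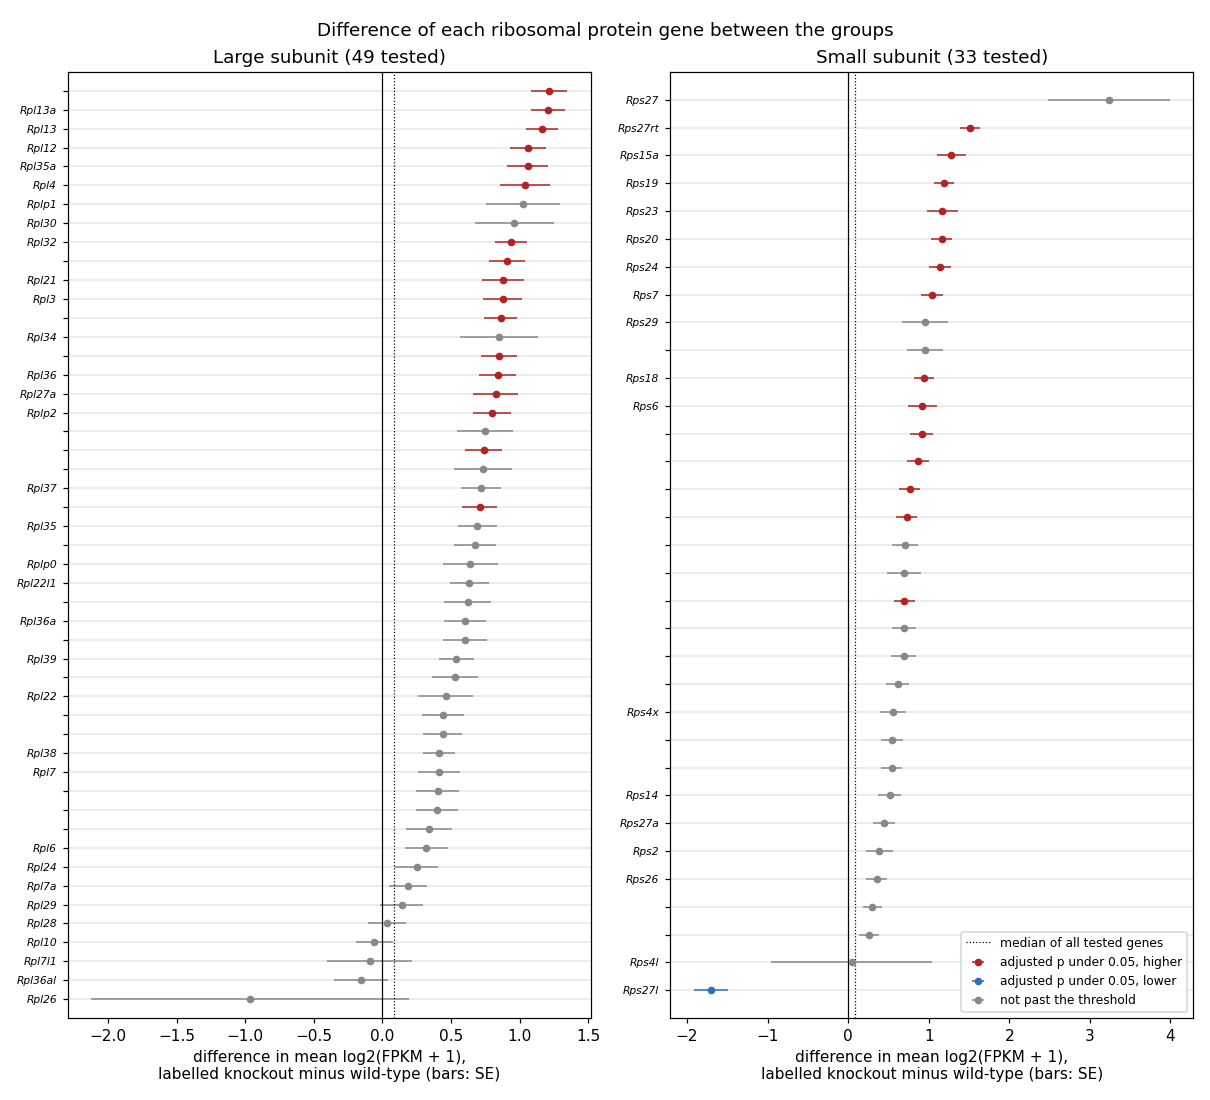
Difference in mean log2(FPKM + 1), libraries labelled knockout minus wild-type, with its SE, for each tested member, large subunit left and small subunit right, with names for the genes described in the text. Rps27 lies farthest right at 3.24 with a wide SE, Rps27l farthest left at -1.70, and most others right of 0.

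The S27 family had the most unlike members. Rps27 encodes a zinc-finger protein of the small subunit. Its row was at 2227 and 2259 FPKM in the knockout-labelled libraries, against 115 and 488 FPKM in wild-type. The groups were far apart, but the wild-type libraries also differed several-fold from each other, and the difference of 3.24 (SE 0.75) did not pass (limma, adjusted p = 0.0625). Leaving out the first wild-type library gave 2.20, and leaving out the second gave 4.28. Rps27rt, the retrogene with the same coding sequence, was at 2913 and 3076 FPKM in the knockout-labelled libraries, against 1108 and 997 FPKM in wild-type. It rose by 1.51 (SE 0.13; limma, adjusted p = 0.024) and was, among members, the one with the highest level in both libraries labelled knockout.

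Rps27l, a paralog known as a p53 target in human cells, moved the other way. It was at 356 and 373 FPKM in the knockout-labelled libraries, against 1405 and 999 FPKM in wild-type. It fell by 1.70 on the log2(FPKM + 1) scale (SE 0.22; limma, adjusted p = 0.0297) and was the only member to fall past the threshold with all 4 libraries. In mouse tissues Rps27 transcripts are known to be relatively enriched in lymphocytes and Rps27l transcripts in mammary alveolar cells and hepatocytes. The lymphocyte and luminal marker sums given above moved with the same libraries, and their part in these differences was not tested. Summed over both rows of identical coding sequence, Rps27 and Rps27rt stood at 5141 and 5335 FPKM in the knockout-labelled libraries, against 1222 and 1484 FPKM in wild-type. With that sum in place of the separate rows, the difference was 1.96 and passed (limma, adjusted p = 0.0241), a setting chosen after seeing the data. The ratio of that sum to Rps27l was 14.5 and 14.3 in the libraries labelled knockout, against 0.870 and 1.49 in wild-type. Rps27l was thus the more abundant form in the first wild-type library, and the minor form in the other 3 libraries. The sum of all 3 rows was 5496 and 5707 FPKM in the knockout-labelled libraries, against 2627 and 2483 FPKM in wild-type. The calls of Rps27rt and Rps27l ended without either library labelled knockout.

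Other small subunit genes with large rises were Rps15a, Rps19, Rps23, Rps20, Rps24 and Rps7. Rps15a was at 40.0 and 39.8 FPKM in the knockout-labelled libraries, against 15.2 and 16.5 FPKM in wild-type, a difference of 1.28 (SE 0.18; limma, adjusted p = 0.0326). Rps19, the gene most often mutated in human Diamond-Blackfan anemia, was at 1734 and 1754 FPKM in the knockout-labelled libraries, against 722 and 809 FPKM in wild-type. The groups were far apart and the difference was 1.19 (SE 0.13; limma, adjusted p = 0.0252). Rps23, whose protein sits at the decoding centre, was at 1023 and 1051 FPKM in the knockout-labelled libraries, against 398 and 533 FPKM in wild-type. Rps20 was at 1097 and 1120 FPKM in the knockout-labelled libraries, against 473 and 519 FPKM in wild-type. Rps23, Rps20, Rps24 and Rps7 rose by 1.17, 1.16, 1.14 and 1.04 (limma, adjusted p = 0.0382, 0.0268, 0.029 and 0.031). Each of these 4 genes was more than doubled in the mean over libraries.

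Rps6, whose protein is phosphorylated downstream of mTOR, was at 486 and 465 FPKM in the knockout-labelled libraries, against 282 and 222 FPKM in wild-type. It rose by 0.92 (SE 0.18; limma, adjusted p = 0.0469), close to the threshold. At the other end, Rps26 was at 522 and 554 FPKM in the knockout-labelled libraries, against 427 and 413 FPKM in wild-type, a difference of 0.35 (SE 0.13; limma, adjusted p = 0.13). Rps2 (0.38), Rps27a, a fusion with ubiquitin (0.44), and Rps14 (0.52) also did not pass, although their groups did not overlap.

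In the large subunit Rpl13a and Rpl13 were among the genes with the largest differences. Rpl13a, known in human cells to leave the ribosome and silence inflammatory mRNAs, was at 930.0 and 919 FPKM in the knockout-labelled libraries, against 393 and 408 FPKM in wild-type. It rose by 1.21 (SE 0.12; limma, adjusted p = 0.0252). Rpl13 was at 2094 and 2142 FPKM in the knockout-labelled libraries, against 922 and 969 FPKM in wild-type (1.16, SE 0.12; limma, adjusted p = 0.0243). In both genes the replicates of each group lay close together and the groups far apart. Rpl12, at the base of the stalk, rose by 1.06, Rpl35a by 1.06 and Rpl4, whose protein lines the exit tunnel, by 1.04 (limma, adjusted p = 0.0291, 0.0324 and 0.0415). Rpl4 was at 924 and 922 FPKM in the knockout-labelled libraries, against 513 and 392 FPKM in wild-type.

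Some large subunit genes hardly differed. Rpl10, which joins the large subunit late in its assembly, was at 437 and 444 FPKM in the knockout-labelled libraries, against 483 and 435 FPKM in wild-type. Its difference was -0.06 (SE 0.14), and its sign turned when libraries were rescaled to a common total (0.02) or quantile normalized (0.02). Rpl28 was at 321 and 338 FPKM in the knockout-labelled libraries, against 335 and 309 FPKM in wild-type, a difference of 0.03 (SE 0.14) that turned to -0.06 with median centring. In both genes the groups overlapped. Rpl29 (0.14), Rpl7a (0.19), Rpl24 (0.25), whose mutation causes the mouse Belly spot and tail phenotype, and Rpl6 (0.32) were somewhat higher, did not overlap between groups and did not pass. Adjusted p-values of these 6 genes ran from 0.21 to 0.88 (limma), which does not show that their levels were equal.

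The stalk that recruits translation factors was represented by all 3 of its genes. Rplp2 was at 1213 and 1264 FPKM in the knockout-labelled libraries, against 665 and 762 FPKM in wild-type, and rose by 0.80 (SE 0.14; limma, adjusted p = 0.0402). Rplp1 was at 1339 and 1501 FPKM in the knockout-labelled libraries, against 554 and 872 FPKM in wild-type, a difference of 1.03 (SE 0.27; limma, adjusted p = 0.0752). Rplp0, which anchors the other stalk proteins, was at 706 and 689 FPKM in the knockout-labelled libraries, against 520.0 and 384 FPKM in wild-type, a difference of 0.64 (SE 0.20; limma, adjusted p = 0.10). None of the 3 overlapped between groups, and the wild-type replicates of Rplp1 and Rplp0 stood farther apart than those of Rplp2.

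By mean FPKM over the 4 libraries the most abundant large subunit rows were Rpl35, Rpl32, Rpl13, Rpl38 and Rpl36. The order differed between the groups, with Rpl38 above Rpl32 in both wild-type libraries. Rpl35 was at 2337 and 2484 FPKM in the knockout-labelled libraries, against 1372 and 1621 FPKM in wild-type, and lay just outside the threshold (0.69, SE 0.14; limma, adjusted p = 0.0514). Rpl32 was at 2259 and 2257 FPKM in the knockout-labelled libraries, against 1207 and 1149 FPKM in wild-type, and rose by 0.94 (limma, adjusted p = 0.029). Rpl36 was at 1731 and 1968 FPKM in the knockout-labelled libraries, against 999.6 and 1062 FPKM in wild-type, and rose by 0.84 (limma, adjusted p = 0.0365). Rpl38, whose loss in the mouse gives the Tail short phenotype, was at 1636 and 1738 FPKM in the knockout-labelled libraries, against 1246 and 1289 FPKM in wild-type. Its groups were apart by less, and the difference of 0.41 did not pass (limma, adjusted p = 0.0867). In the small subunit, Rps29 and Rps18 stood, by the same mean, among the 5 most abundant genes beside Rps27rt, Rps27 and Rps19. Rps29 was at 1728 and 2001 FPKM in the knockout-labelled libraries, against 752 and 1222 FPKM in wild-type. It did not pass (0.95, SE 0.29; limma, adjusted p = 0.0942), whereas Rps18 rose by 0.94 (limma, adjusted p = 0.0297).

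The core members thus did not all differ by one amount. Their median log2 difference was 0.71, the middle range was 0.46 to 0.93, and 68 of 76 lay within 0.5 of the median. Of the 76, 73 had groups that did not overlap with the libraries labelled knockout higher, and 3 overlapped (Rpl10, Rpl28 and Rpl26). Over all tested genes, 39.3% had groups that did not overlap with the libraries labelled knockout higher. At an unadjusted p under 0.05 (limma), 60 core members were higher and none was lower. Of all 11138 tested genes, 4395 lay under that value in either direction. Across these 76 genes, which share the same 4 libraries, the difference had a Spearman rho of 0.12 with the mean wild-type level. It had a rho of -0.13 with the coding length and of -0.086 with the number of annotated near-identical copies. Rpl27a (adjusted p = 0.0493) and Rps6 lay just inside the limma threshold, and Rpl37 (adjusted p = 0.0501) and Rpl35 just outside it.

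Near-identical copies bear on the rows that were unusually low. A coding sequence was found for 84 members, and 77 had at least 1 annotated gene or pseudogene matching 95% of bases over 90% of the coding sequence, with a median of 4. Rpl21 had the most, with 56. Only 15 members had such a copy with a row of its own. Rpl26 was at 6.23 FPKM and close to 0 in the libraries labelled knockout, against 7.49 and 2.24 FPKM in wild-type. Its copy Gm15772, a processed pseudogene 99.5% identical to its coding sequence, was listed at 563 and 594 FPKM in the knockout-labelled libraries, against 548 and 458 FPKM in wild-type. The gene row thus lay far below its copy in every library. Its difference of -0.96 (SE 1.16) became 0.20 when both rows were summed, so its direction depends on how the reads were assigned.

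Rpl30 and Rpl34 showed the same arrangement. Rpl30 was at 13.3 and 14.1 FPKM in the knockout-labelled libraries, against 8.24 and 5.19 FPKM in wild-type. Its copy Gm12191 was at 311 and 311 FPKM in the knockout-labelled libraries, against 153 and 178 FPKM in wild-type. Rpl34 was at 58.3 and 74.0 FPKM in the knockout-labelled libraries, against 29.6 and 43.7 FPKM in wild-type. Rpl34-ps1 was at 669 and 715 FPKM in the knockout-labelled libraries, against 350.1 and 374 FPKM in wild-type, and its row rose by 0.93 (SE 0.13; limma, adjusted p = 0.033). In these pairs the pseudogene row carried most of the signal, and gene and copy were both higher in the libraries labelled knockout. Reads of such pairs cannot be told apart by the coding sequence alone.

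All 7 rows named as ribosomal protein pseudogenes were higher in both libraries labelled knockout than in either wild-type library, where 39.3% of all tested genes had that pattern, and 4 rose (limma), where 9.51% of all tested genes did. Besides Rpl34-ps1 these were Rps15a-ps4 (1.30), Rps15a-ps6 (1.22) and Rps19-ps3 (1.17), whose parents Rps15a (1.28) and Rps19 (1.19) differed by similar amounts. Rps15a itself was at about the level of each of its copies, with Rps15a-ps6 at 29.3 and 28.9 FPKM in the knockout-labelled libraries, against 12.3 and 11.6 FPKM in wild-type. Rpl14-ps1 (0.72), Rplp2-ps1 (0.60) and Rpl31-ps12 (0.43) did not pass.

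**Figure D4:**
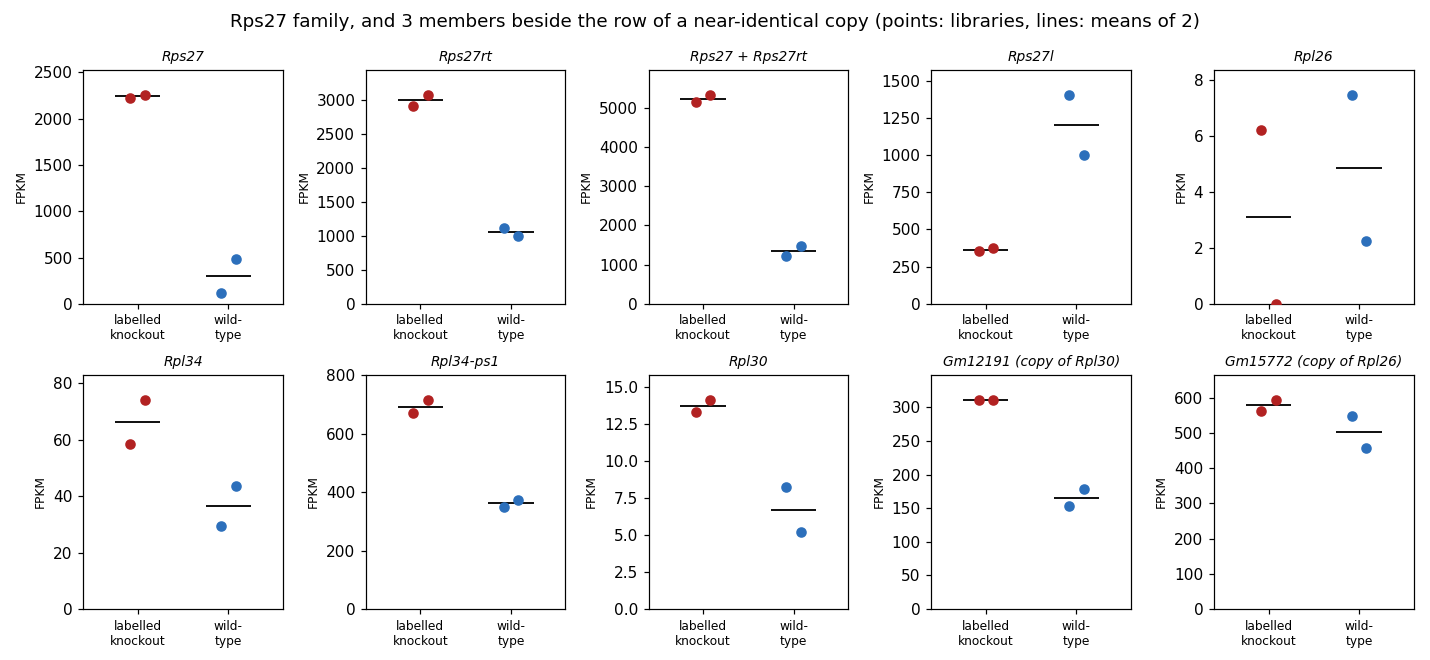
FPKM of the Rps27 family and of Rpl26, Rpl30 and Rpl34 beside a near-identical copy, on linear axes from 0 that differ between panels, with points for libraries and lines for the mean of 2. Rps27l is the panel with wild-type far above the libraries labelled knockout, and Rpl26, Rpl30 and Rpl34 lie far below their copies.

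The remaining paralogs behaved in different ways. Rpl22, which mouse T cell development requires, was at 42.4 and 41.6 FPKM in the knockout-labelled libraries, against 27.4 and 33.4 FPKM in wild-type. Its paralog Rpl22l1 (68.2% identical over the aligned coding positions) was at 257 and 251 FPKM in the knockout-labelled libraries, against 157 and 170 FPKM in wild-type. Neither passed (0.46 and 0.63; limma, adjusted p = 0.17 and 0.0592), and the Rpl22 to Rpl22l1 ratio stayed between 0.165 and 0.197 in all 4 libraries. Rpl36a (0.60; limma, adjusted p = 0.0716) was higher in both libraries labelled knockout, whereas Rpl36al, 87.9% identical, overlapped between groups (-0.15). The Rpl36a to Rpl36al ratio was 1.17 and 1.16 in the libraries labelled knockout, against 0.573 and 0.824 in wild-type, and this difference was not tested.

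Paralogs known from other tissues were at or near 0. Rpl3l, a heart and skeletal muscle form, was at 0.1 and 0.0931 FPKM in the knockout-labelled libraries, against 0 and 0.0547 FPKM in wild-type. Rpl10l and Rpl39l, testis forms, did not exceed 0.0462 and 0.381 FPKM in any library. These 3 members did not pass the filter and were not tested. Rps4l was at 1.71 and 1.64 FPKM in the knockout-labelled libraries, against a listed 0 and 5.71 FPKM in wild-type, so its difference of 0.04 has no direction: it was -1.33 without the first wild-type library. Rpl7l1, whose product takes part in making the large subunit, was at 28.3 and 29.2 FPKM in the knockout-labelled libraries, against 39.7 and 23.7 FPKM in wild-type, and overlapped between groups (-0.09). Of the usual forms beside these paralogs, Rpl3 rose by 0.88 (SE 0.14; limma, adjusted p = 0.0365), with 599.5 and 560.3 FPKM in the knockout-labelled libraries, against 331 and 300.2 FPKM in wild-type. Rpl39 (0.54), Rps4x (0.56) and Rpl7 (0.41) were higher in both libraries labelled knockout than in either wild-type library and did not pass (limma, adjusted p = 0.0645, 0.0925 and 0.13).

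Genes linked to the ribosome were read from the same comparison. Among ribosomal proteins whose symbols lie outside the naming rule, Rpsa, the laminin receptor homolog of the small subunit, rose by 1.01 (SE 0.19; limma, adjusted p = 0.0437). Fau was at 795 and 823 FPKM in the knockout-labelled libraries, against 435 and 547 FPKM in wild-type, and did not pass (limma, adjusted p = 0.0625). Gnb2l1, which encodes the scaffold RACK1, was at 272 and 269 FPKM in the knockout-labelled libraries, against 253 and 178 FPKM in wild-type (difference 0.34; limma, adjusted p = 0.32).

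Among 22 translation factors and other genes known or held to have TOP mRNAs, 3 rose and 19 did not pass, with a median difference of 0.41. The share that rose, 13.6%, was near the 9.51% of all tested genes. In 16 of the 22 (72.7%) the groups did not overlap with the libraries labelled knockout higher, and in 0 with them lower. Of all tested genes, 39.3% and 32.1% had those patterns. Eif4a2, an RNA helicase of initiation, was at 127 and 131 FPKM in the knockout-labelled libraries, against 60.2 and 44.1 FPKM in wild-type, and rose by 1.31 (limma, adjusted p = 0.0397). Eef1a1, the main elongation factor for aminoacyl-tRNA delivery, was at 1475 and 1368 FPKM in the knockout-labelled libraries, against 867 and 764 FPKM in wild-type, and rose by 0.80 (limma, adjusted p = 0.0397). Eif3e rose by 0.81, at the very edge of the threshold (limma, adjusted p = 0.05). Eif3f (0.72) and Tpt1, the translationally controlled tumor protein (0.73), did not pass.

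Of 44 tested ribosome biogenesis genes 6 rose and 38 did not pass, with a median of 0.47. Here too the share that rose, 13.6%, was near the 9.51% of all tested genes. In 25 of the 44 (56.8%) the groups did not overlap with the libraries labelled knockout higher, and in 1 with them lower, against 39.3% and 32.1% of all tested genes. Nop56, a core protein of methylating snoRNA particles, was at 170 and 171 FPKM in the knockout-labelled libraries, against 55.7 and 42.1 FPKM in wild-type, and rose by 1.80 (SE 0.21; limma, adjusted p = 0.0277). Ddx21, Dkc1, Rrp9 and Ncl, all nucleolar, rose by 1.40, 1.14, 1.10 and 0.88, and Polr1a, the largest subunit of RNA polymerase I, by 1.14. Of 7 snoRNA host genes 3 rose (Snhg12 by 2.45, Snhg5 by 1.57 and Gas5 by 0.94), and Snhg3 fell by 1.75 (limma, adjusted p = 0.0291). Snhg3 was at 11.5 and 10.5 FPKM in the knockout-labelled libraries, against 34.9 and 44.2 FPKM in wild-type.

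Regulators of TOP mRNAs showed no common direction. The list of 19 tested genes joins the mTOR pathway and its targets with Myc and its partner Max. Only Max rose (1.18, limma, adjusted p = 0.0479), none fell, and the median was 0.02. That is 5.26% higher, where 9.51% of all tested genes rose and 6.99% fell. Larp1 was at 13.2 and 11.9 FPKM in the knockout-labelled libraries, against 9.97 and 6.48 FPKM in wild-type, and Mtor at 1.13 and 1.08 FPKM in the knockout-labelled libraries, against 0.625 and 1.67 FPKM in wild-type. Eif4ebp1, which encodes a translation repressor that mTOR inactivates, was at 26.3 and 31.4 FPKM in the knockout-labelled libraries, against 116 and 63.8 FPKM in wild-type (-1.55; limma, adjusted p = 0.0622). Myc itself was at 49.8 and 43.9 FPKM in the knockout-labelled libraries, between the wild-type values of 65.7 and 27.0 FPKM.

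Mitochondrial ribosomal proteins, which are encoded by the Mrpl and Mrps genes and serve the separate ribosome of mitochondria, mostly did not pass. Of 48 large subunit genes none rose and 1 fell, with a median of -0.23, and of 29 small subunit genes none passed, with a median of -0.22. Over all tested genes 9.51% rose and 6.99% fell. Both medians lie between the all-gene quartiles of -0.63 and 0.69, as does the cytosolic large subunit's median of 0.67. The groups did not overlap with the libraries labelled knockout lower in 26 of the 48 and 14 of the 29 genes, and with them higher in 8 and 5. Of all tested genes, 32.1% had the lower and 39.3% the higher pattern. Mrpl27 was at 16.6 and 15.9 FPKM in the knockout-labelled libraries, against 55.6 and 59.3 FPKM in wild-type, and fell by 1.76 (SE 0.18; limma, adjusted p = 0.0246). Mrpl32 (0.76) and Mrpl9 (0.74) were higher and Mrpl51 (-0.82) and Mrps21 (-0.68) lower in the libraries labelled knockout, and none of these 4 passed. The difference between the cytosolic and mitochondrial lists was not tested.

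**Figure D5:**
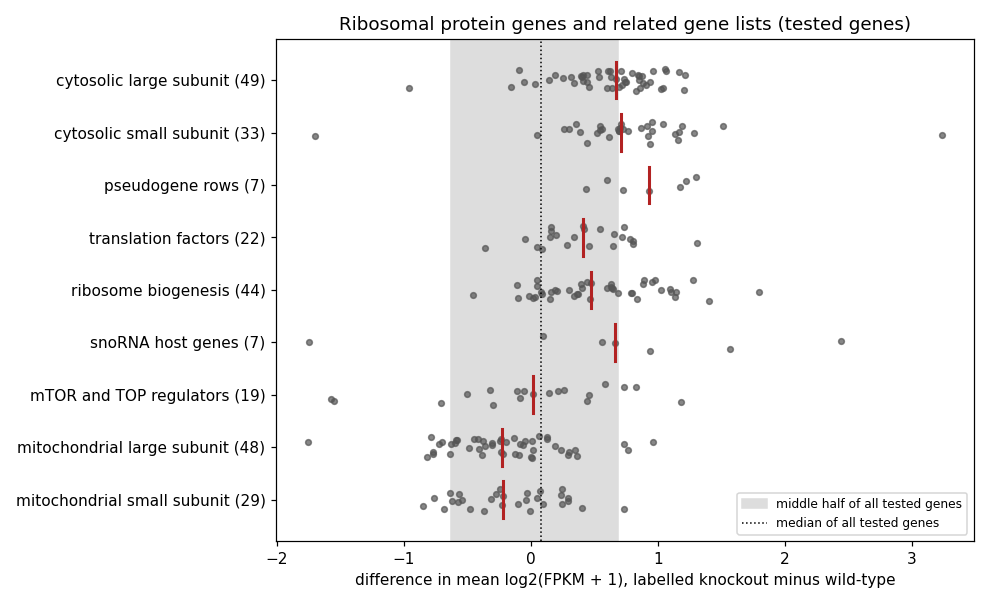
Difference in mean log2(FPKM + 1), libraries labelled knockout minus wild-type, of each tested gene in 9 lists, with a red line at each list's median, a grey band between the quartiles of all tested genes and a dotted line at their median. The cytosolic medians lie at 0.67 and 0.71, and the mitochondrial medians at -0.23 and -0.22.

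The size of these differences moved with the scaling. With libraries rescaled to a common total outside the ribosomal protein rows, the median was 0.86 for the large and 0.90 for the small subunit. The median of all tested genes was then 0.23, a shift of 0.15 from that on the deposited scale. With median centring the subunit medians were 0.58 and 0.62. The subunit medians were positive under each scaling tried.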

How the data were processed

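RNA libraries had been prepared with a low-input mRNA kit (Clontech SMARTer), per the labels' protocols. The authors deposited 1 FPKM value per gene and library; the header names no unit, which was read from the values. The submitters' processing notes name the build mm9; no source used here names the aligner, counting tool or annotation. Of 24043 rows, 92 spike-in rows were left out, and the 11138 genes that reached 1 FPKM in 2 or more libraries were tested. Values were analysed as log2(FPKM + 1) in limma 3.58.1 (R 4.3.3). The prior was trended and robust, the only term was genotype, and p-values had Benjamini-Hochberg adjustment at 0.05. Differences on this scale understate changes of low genes. Groups came from the sample titles. Read totals are unknown; FPKM gives no counting interval. Coding sequences came from GENCODE M21 and gene starts from RefSeq, both on GRCm38, and copies were found with blastn. Members, lists and tests were chosen with earlier results of these data known. Named genes were, per subunit, the 7 core members with the largest and the 7 with the lowest difference, the 5 most abundant, the stalk genes, paralogs with their partners, untested members and up to 5 genes of lowest p per related list, apart from a few genes not reported here; Rps6, Rpl27a, Rpl37, Rpl30, Rpl34, Larp1, Mtor and Myc were added after their values were seen. Alternatives changed the pseudocount, filter, scaling, prior, replicate block, the libraries used and the counting of near copies.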

Additional observations from a re-analysis of the deposited data

How the results depend on the processing

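With no filter on low values 1 gene of all tested, 0 large and 0 small subunit genes passed (limma), with 4462, 32 and 26 at an unadjusted p under 0.05; DESeq2 and edgeR were not applicable to FPKM. Without the trended and robust prior 1830 genes in all, 7 large and 9 small subunit genes passed. The replicate block gave 501 genes in all, 0 large (27 at an unadjusted p under 0.05) and 2 small subunit genes; same-numbered libraries had deviations correlated at -0.0619, so the numbers are not treated as a pairing. Scaling outside the ribosomal rows gave 1952 genes in all and 24 small subunit genes. The large and small medians were 0.75 and 0.79 with a common total, 0.86 and 0.90 outside the ribosomal rows, 0.58 and 0.62 with median centring, and 0.78 for the small subunit with quantile normalization. Leaving out 1 library gave 0 to 7912 genes in all, 0 to 44 large and 0 to 33 small subunit genes, with medians from 0.58 to 0.69 and 0.68 to 0.82; with 1 library left in a group, that library is assumed to vary like the other group.

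Signs turned in genes that did not pass: Rpl10 (0.0225 with a common total, 0.13 outside the ribosomal rows, 0.0192 with quantile normalization), Rpl36al (0.0344) and Rpl7l1 (0.0903) outside the ribosomal rows, Rpl28 (-0.0607) and Rps4l (-0.0496) with median centring, Rps4l with a pseudocount of 10 (-0.10) or quantile normalization (-0.0395), and Rpl26 with near copies summed (0.20). Leaving out 1 library gave ranges across 0 for Rpl10 (-0.13 to 0.0172), Rpl36al (-0.34 to 0.0294), Rpl7l1 (-0.45 to 0.27), Rpl28 (-0.0234 to 0.0896), Rps4l (-1.33 to 1.42) and Rpl26 (-2.39 to 0.46). The cause was not tested. All 32 called members kept their call at a filter of 5 FPKM and with scaling outside the ribosomal rows, 31 with quantile normalization, 30 with a pseudocount of 0.1, 27 with a common total and 23 with median centring.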
